A study of Homo sapiens with 3 samples.

Results

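AP-1 (activator protein 1) is a transcription factor assembled from pairs of basic leucine zipper proteins, and the genes for 3 of its families were examined here: JUN (JUN, JUNB, JUND), FOS (FOS, FOSB, FOSL1, FOSL2) and BATF (BATF, BATF2, BATF3). They were selected by gene name among the rows on the main chromosome sequences, which gave 10 of 39320 gene rows. PolyA RNA was sequenced in 3 libraries labelled HepG2, the name of a cell line established from a human liver cancer, all of them labelled wild type and numbered as replicates 1 to 3. These form 1 condition with no treatment and no control group, so the data describe levels and not a response. Nothing in the sources says that the libraries came from separate cultures, so the spread between them, given as the SD, may be technical.

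JUN proteins pair with each other or with FOS proteins, whereas FOS proteins need a JUN partner to bind DNA, and the pairs read the TPA response element TGACTCA or the longer cAMP response element TGACGTCA. Several of these genes are immediate early genes, which growth factors, stress and serum switch on within minutes through MAP kinases. Their mRNAs are often short-lived, partly through AU-rich elements in the 3′ end. BATF proteins lack a transactivation domain, pair with JUN proteins and are best known from lymphoid and dendritic cells, where they act with IRF4 and IRF8. In liver, JUN and its relatives are known for roles in regeneration and tumour growth.

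The tables give 1 value per gene in TPM, a level per transcript length that sums to a fixed total in every library, and all levels compared between genes below are in TPM unless coverage is named. Read counts were not analysed here, so sequencing depth is not known and no interval for counting error was computed. Coverage is the mean depth per base, with no scaling between libraries. The highest ratio of coverage to FPKM, a relative measure of depth, was 13.3, 12.8 and 11.5 in replicates 1, 2 and 3. The label was also set against liver markers: all 12 genes for hepatocyte secreted proteins that were checked, among them ALB (albumin) and AFP (alpha-fetoprotein), were below 1 TPM in every library, and 9 of them, ALB included, were listed at 0 in all 3. Their summed level lay between 0.0571 and 0.244 TPM. Of 4 blood cell markers only CD68 reached 1 TPM in every library, and of 5 fibroblast markers only COL1A1 did, with summed levels of up to 11.0 and 7.50 TPM. The liver markers thus go against the label, and the cells in these libraries may not be HepG2. The levels below are those of the libraries labelled HepG2, and they may not hold for that cell line.

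Most of the set was detected. In every library, 8 of 10 genes had at least 1 TPM, against 59.5% of all 18743 protein-coding rows and 33.8% of all gene rows. JUND was the highest, followed by JUNB, FOSL1, FOSL2 and JUN, and these 5 reached 10 TPM in every library, against 40.4% of protein-coding rows. BATF3, FOS and FOSB lay lower, between 2.33 and 8.05 TPM. BATF and BATF2 stayed below 1 TPM in every library, and BATF2 was the 1 gene listed at 0 in all 3, against 20.0% of protein-coding rows. In bulk RNA, fewer cells that use a gene and less of its RNA per cell cannot be told apart.

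**Figure D1:**
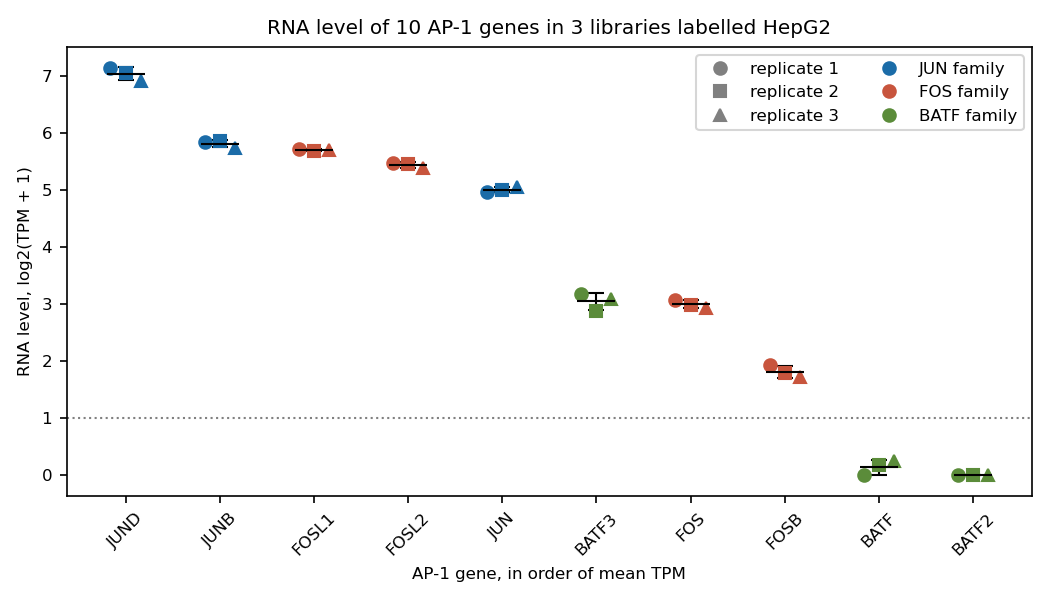
RNA level of the 10 AP-1 genes as log2(TPM + 1) on the vertical axis, with the genes on the horizontal axis in order of mean TPM. Symbols are the 3 libraries, colours the families, black dashes and bars the mean and SD over 3 libraries, and the dotted line is at 1 TPM. The libraries of a gene lie close together, and the set spans from JUND at 131 TPM to BATF2 at 0.

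The JUN family was led by JUND, the family member known for steady expression in resting cells and an antagonist of RAS-driven growth in some of them. JUND (chr19:18279694-18281656, minus strand) had 140, 133 and 120 TPM in replicates 1, 2 and 3, a mean of 131 TPM ± 10.1 (SD, n = 3). All 3 libraries lay above every value of any other AP-1 gene, and the mean was higher than 92.0% of the 13753 rows with a mean of at least 1 TPM. JUNB (chr19:12791486-12793315, plus strand), often a weaker activator than JUN and a brake on its activity, had 56.5, 56.9 and 52.7 TPM, a mean of 55.4 TPM ± 2.32 (SD, n = 3). It stands on the same chromosome as JUND, 5.49 Mb away. JUN (chr1:58780791-58784113, minus strand), the founding member and the main target of the JNK kinases, had 30.3, 31.3 and 32.1 TPM, a mean of 31.2 TPM ± 0.909 (SD, n = 3). It was the lowest of its family in every library, and its values did not overlap with those of JUNB or JUND. Within the family, JUND took 60.2% ± 1.56 of the summed TPM, JUNB 25.4% ± 0.483 and JUN 14.4% ± 1.17 (SD, n = 3).

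The promoters of this family are shown because JUN and JUND are known to be bound by AP-1 and CREB/ATF proteins themselves. RefSeq promoter sequence (GRCh38.p14), from 250 bases before to 50 bases after the start that RefSeq gives each gene, was given for 8 of the 10 genes, FOSL1 and BATF3 being the others. All distances below are from this RefSeq start, which for JUN lay 66 bases and for JUND 34 bases inside the row whose coordinates are given above, and for JUNB and FOS was the first base of the row. It lay 1 base inside the row for FOSB, 3 for FOSL2, 28 for BATF and 6694 for BATF2. The letters TGACTCA, TGACGTCA, TGACATCA (the variant known from the JUN promoter), TGACG (the core of the cAMP response element, also part of TGACGTCA on both strands), TATAA and CCAAT and the serum response CArG box were searched on both strands. The lines give 30 bases, 5′ to 3′ on the strand of the gene, with the match in capitals: the full cAMP response element of JUND (chr19:18281804-18281833, minus strand), the variant site of JUN (chr1:58784096-58784125, minus strand), the core of JUN (chr1:58784153-58784182, minus strand), and the core of JUNB (chr19:12791337-12791366, plus strand).
JUND: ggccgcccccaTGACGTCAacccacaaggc
JUN: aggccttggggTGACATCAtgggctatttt
JUN: gagtctccatggTGACGggcgggcccgccc
JUNB: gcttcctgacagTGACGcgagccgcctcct
The JUND element began 200 bases before the RefSeq start, and 1.85% of all 35116 promoters held these letters. The JUN variant began 67 bases before the RefSeq start, and so lay almost wholly inside the row, at a site found in 2.61% of promoters, and the BATF2 promoter held it too. CCAAT was found in 3 of the 8 promoters, those of JUN, JUNB and JUND, against 34.6% of all promoters. The count lies close to that share, so it is not read as a trait of the set or of the family. A match describes the letters and not binding, which was not measured.

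Among the FOS family, FOSL1 and FOSL2, which encode the FOS-related antigens FRA-1 and FRA-2, were far above FOS and FOSB. FOSL1 (chr11:65892136-65900526, minus strand), known for high levels in invasive and mesenchymal tumour cells, had 51.6, 50.4 and 51.4 TPM, a mean of 51.1 TPM ± 0.652 (SD, n = 3). FOSL2 (chr2:28392855-28417317, plus strand) had 43.8, 43.0 and 40.8 TPM, a mean of 42.5 TPM ± 1.57 (SD, n = 3). Both genes were above JUN in every library in TPM, and FOSL1 was above FOSL2 in every library with no overlap. FOS (chr14:75278828-75282230, plus strand), the classical serum-induced proto-oncogene, had 7.45, 6.93 and 6.66 TPM, a mean of 7.01 TPM ± 0.401 (SD, n = 3). FOSB (chr19:45467995-45475179, plus strand), an inducible relative known from the brain, had 2.80, 2.46 and 2.33 TPM, a mean of 2.53 TPM ± 0.248 (SD, n = 3). FOS exceeded FOSB by 1.18 ± 0.03 on the log2(TPM + 1) scale, in 3 of 3 libraries. FOSL1 took 49.6% ± 1.10 of the family's TPM, FOSL2 41.2% ± 0.809, FOS 6.79% ± 0.238 and FOSB 2.45% ± 0.185 (SD, n = 3). By coverage FOSL1 took 65.9% ± 0.985, FOSL2 21.6% ± 0.548, FOS 9.24% ± 0.380 and FOSB 3.28% ± 0.245 (SD, n = 3).

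The core TGACG was found in 6 of the 8 promoters, those of JUN, JUNB, JUND, FOS, FOSB and FOSL2, against 24.6% of all promoters and 27.9% of the 22199 promoters of protein-coding genes. It was absent from the promoters of BATF and BATF2, as from most promoters, and FOSL1 and BATF3 had no entry. A relation between this core and the RNA level was not tested. The FOS family sites on the gene strand are printed to be set side by side, their first bases being 64, 60 and 66 bases before the start in FOS (chr14:75278752-75278781), FOSB (chr19:45467924-45467953) and FOSL2 (chr2:28392780-28392809), all on the plus strand. FOSL2 held another core on the opposite strand, 201 bases before the start, and JUND 1 apart from its full element, 86 bases before the start. The last line is the 1 TPA response element found, in FOSL2 (chr2:28392851-28392880, plus strand), where it began 4 bases after the start.
FOS: tggttgagcccgTGACGtttacactcattc
FOSB: gcaaggggcgggTGACGtaagcaggggggc
FOSL2: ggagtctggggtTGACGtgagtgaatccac
FOSL2: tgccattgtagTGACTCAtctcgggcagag
The letters TGACTCA stood in 4.95% of promoters. TATAA was found in 4 of the 8 promoters, those of FOS, FOSB, JUNB and JUND. Anywhere in the window it stood in 20.4% of all promoters and 16.5% of those of protein-coding genes. On the gene strand the matches of these genes ended 25 to 29 bases before the start. In FOS, TATAA overlapped its reverse complement on the other strand. The CArG box was found in none of the 8 in this window, against 1.29% of promoters.

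The BATF family was represented by BATF3 alone at 1 TPM or above. BATF3 (chr1:212686417-212699943, minus strand), needed for the development of cross-presenting dendritic cells, had 8.05, 6.38 and 7.56 TPM, a mean of 7.33 TPM ± 0.856 (SD, n = 3). BATF (chr14:75522441-75546992, plus strand), known from T and B cell differentiation, was listed at 0 in replicate 1 and had 0.139 and 0.187 TPM in replicates 2 and 3. BATF2 (chr11:64987945-64996971, minus strand), an interferon-induced member, was listed at 0 in all 3 libraries. The BATF values were low enough that 1 library listed the gene at 0. Of the IRF partners of BATF, IRF4 had 0, 0.0148 and 0.0616 TPM, and IRF8 was listed at 0 in every library. Among protein-coding rows, 38.9% stayed below 1 TPM and 20.0% were listed at 0 in every library. A relation between BATF and IRF levels was not tested.

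Summed over each family, JUN genes gave 227, 221 and 205 TPM, FOS genes 106, 103 and 101 TPM, and BATF genes 8.05, 6.52 and 7.75 TPM. The JUN family made up 66.3% ± 0.850 of the AP-1 total, the FOS family 31.4% ± 0.669 and the BATF family 2.27% ± 0.259 (SD, n = 3). The log2 ratio of summed JUN to summed FOS TPM, with a pseudocount of 1, was 1.10, 1.10 and 1.01, a mean of 1.07 ± 0.05 (SD, n = 3), positive in 3 of 3 libraries. By coverage the same ratio was 1.52, and the shares were 73.6% ± 0.881 for JUN, 25.6% ± 0.798 for FOS and 0.781% ± 0.0969 for BATF (SD, n = 3). An exact two-sided sign-flip test over 3 libraries cannot go below p = 0.25, so no p is given for this or the following ratios.

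**Figure D2:**
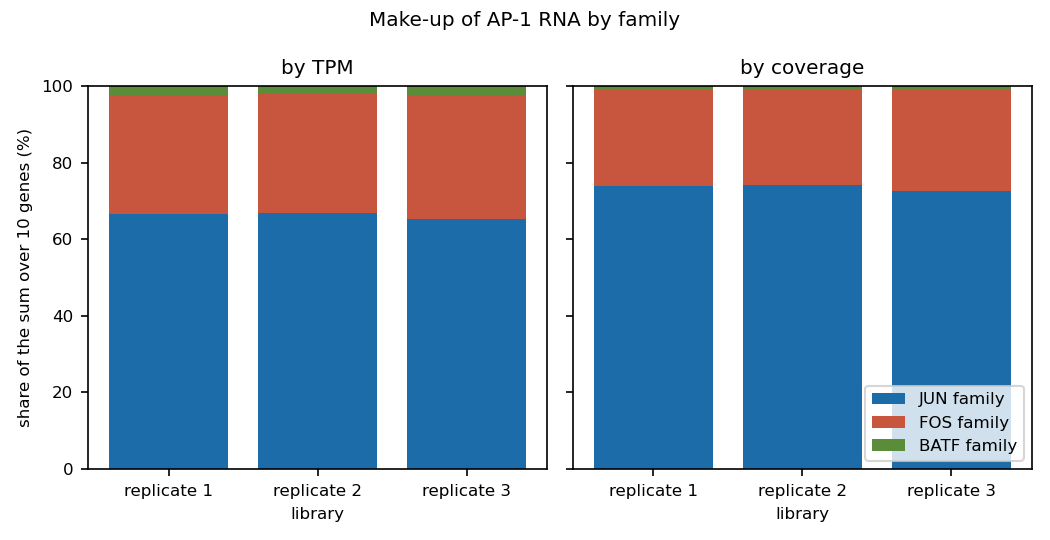
Share of each family (colours) in the sum over the 10 AP-1 genes, in percent, for each library (bars), by TPM on the left and by coverage on the right. The JUN family takes the largest share in every library, 66.3% on average by TPM and 73.6% by coverage.

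The order of the genes was examined as the log2 ratio of each gene to the next, with a pseudocount of 1. JUND exceeded JUNB by 1.23 ± 0.06, JUN exceeded BATF3 by 1.96 ± 0.17 and FOSB exceeded BATF by 1.67 ± 0.23 (SD, n = 3), each in 3 of 3 libraries. The size of the step from FOSB to BATF depended on the pseudocount. With a pseudocount of 0.1 it was 3.79 ± 0.95 (SD, n = 3). The steps among JUNB, FOSL1, FOSL2 and JUN were smaller: JUNB to FOSL1 was 0.11 ± 0.07, FOSL1 to FOSL2 0.26 ± 0.06 and FOSL2 to JUN 0.43 ± 0.09 (SD, n = 3). These small steps were also in the same direction in 3 of 3 libraries, without overlap of the ranges. BATF3 and FOS did not differ beyond their spread, with a log2 ratio of 0.05 ± 0.14 (SD, n = 3), BATF3 being higher in 2 of 3 libraries. BATF and BATF2 overlapped as well, since both were listed at 0 in replicate 1.

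The place of FOSL2 and BATF3 in this order, and the size of the steps beside them, depended on which deposited column was read. By coverage, FOSL2 had 105, 102 and 86.7 and JUN 190, 192 and 176, so that the log2 ratio of FOSL2 to JUN was -0.93 ± 0.08 (SD, n = 3), with FOSL2 lower in 3 of 3 libraries. The step from FOSL1 to FOSL2, small in TPM, was 1.60 ± 0.05 (SD, n = 3) by coverage, and that from JUND to JUNB was 1.24 ± 0.06. BATF3 had 15.2, 11.6 and 12.5 and FOS 46.7, 42.5 and 36.6, so that the log2 ratio of BATF3 to FOS was -1.61 ± 0.16 (SD, n = 3). The 2 columns were compared through the ratio of coverage to FPKM, which JUN, JUNB, JUND and FOS held at the highest value of any row in every library, within 0.001. FOSB and FOSL1 stood at 0.974 to 0.995 of that value. FOSL2 stood at 0.381, 0.385 and 0.387 of it, and BATF3 at 0.302, 0.296 and 0.302. The shares of all rows at the highest ratio or at such low ratios were not computed. The split is therefore not read as a trait of these genes. RefSeq lists 1 transcript for JUN, JUNB and FOS, 4 for FOSL2 and 2 for BATF3, but also 2 for JUND, 4 for FOSB and 6 for FOSL1. How the isoforms entered the gene rows was not tested.

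**Figure D3:**
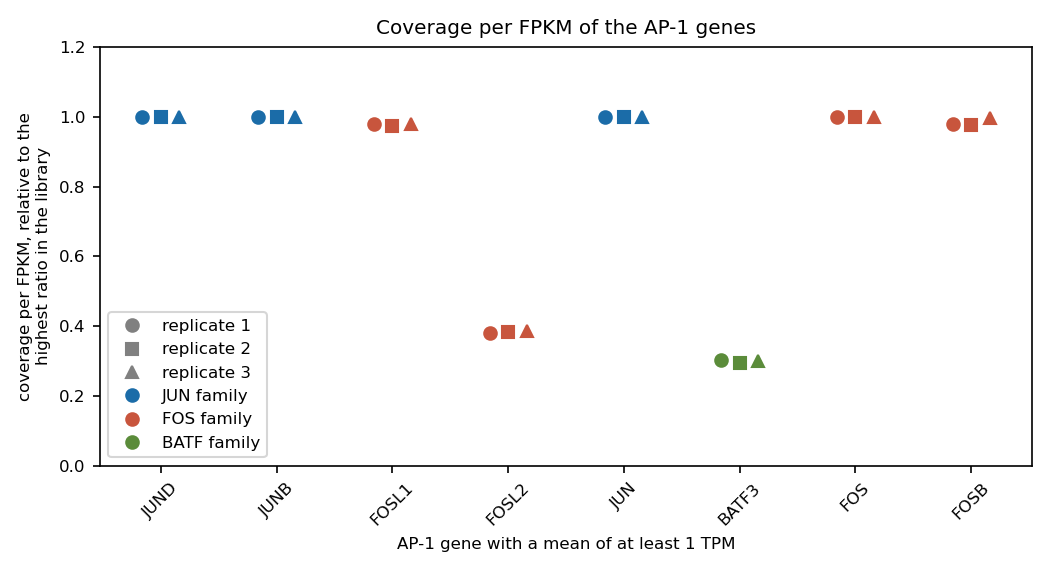
Ratio of coverage to FPKM for the 8 AP-1 genes at 1 TPM or more, divided by the highest ratio of any row in the same library (vertical axis, no unit), with 1 symbol per library. FOSL2 and BATF3 stand at or below 0.387 in all 3 libraries, and the other 6 genes at or above 0.974.

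The libraries agreed closely for most of the set. The coefficient of variation of TPM was 1.28% for FOSL1, 2.91% for JUN, 3.70% for FOSL2 and 4.19% for JUNB, against a median of 6.12% over the rows with a mean of at least 1 TPM. FOS stood at 5.72%, JUND at 7.69%, FOSB at 9.80% and BATF3 at 11.7%, and 82.6% of those rows were less variable than BATF3. Across the 3 libraries log2(TPM + 1) varied by more than 1 in 0 of the 5 AP-1 genes averaging 10 TPM or more, against 0.273% of the 8419 rows at that level. Of the 8 genes at 1 TPM, JUND, FOSL1, FOSL2, FOS, FOSB and BATF3 were highest in replicate 1. The share of all rows highest in replicate 1 was not computed, so this is not read as a trait of the set. JUNB was highest in replicate 2, and JUN was lowest in replicate 1 and highest in replicate 3.

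Overlap with other genes was checked because the strand setting of the counting is not given in the sources used here, and without strand, reads of a gene and of its antisense partner cannot be told apart. The whole FOSB row (7185 bases) lay inside the span of ERCC1, a DNA repair gene on the opposite strand with 70.0 TPM ± 1.59 (SD, n = 3). Of the 3775 exon bases of the MANE Select transcript of FOSB, 0 fell in an exon of any ERCC1 transcript in GENCODE 44. That may not be the annotation behind the rows, and reads from ERCC1 introns were not examined, so antisense signal in FOSB was not tested. FOSL2 shared 1818 bases with FLJ31356 on the opposite strand, which was listed at 0 in every library. No other AP-1 gene overlapped another row.

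Among the genome neighbours, FOS, JDP2 and BATF lie in this order on chromosome 14, and all 3 encode basic leucine zipper proteins of the AP-1 network. JDP2, which represses AP-1 sites, stands 144 kb beyond FOS and 48.3 kb before BATF, and had 23.4, 19.8 and 15.8 TPM. It was higher than FOS and BATF in every library, and FOS and BATF themselves are 240.2 kb apart. On chromosome 1, BATF3 lies 65.6 kb from ATF3, a stress-induced partner of JUN, which had 52.3, 50.7 and 47.8 TPM. ATF3 exceeded BATF3 in every library, and the 2 rows between them stayed below 1 TPM. FOSL1 and BATF2 lie 0.895 Mb apart on chromosome 11, with FOSL1 at 51.1 TPM and BATF2 listed at 0, while CCDC85B, 500 bases from FOSL1, had 184 TPM ± 3.11 (SD, n = 3).

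**Figure D4:**
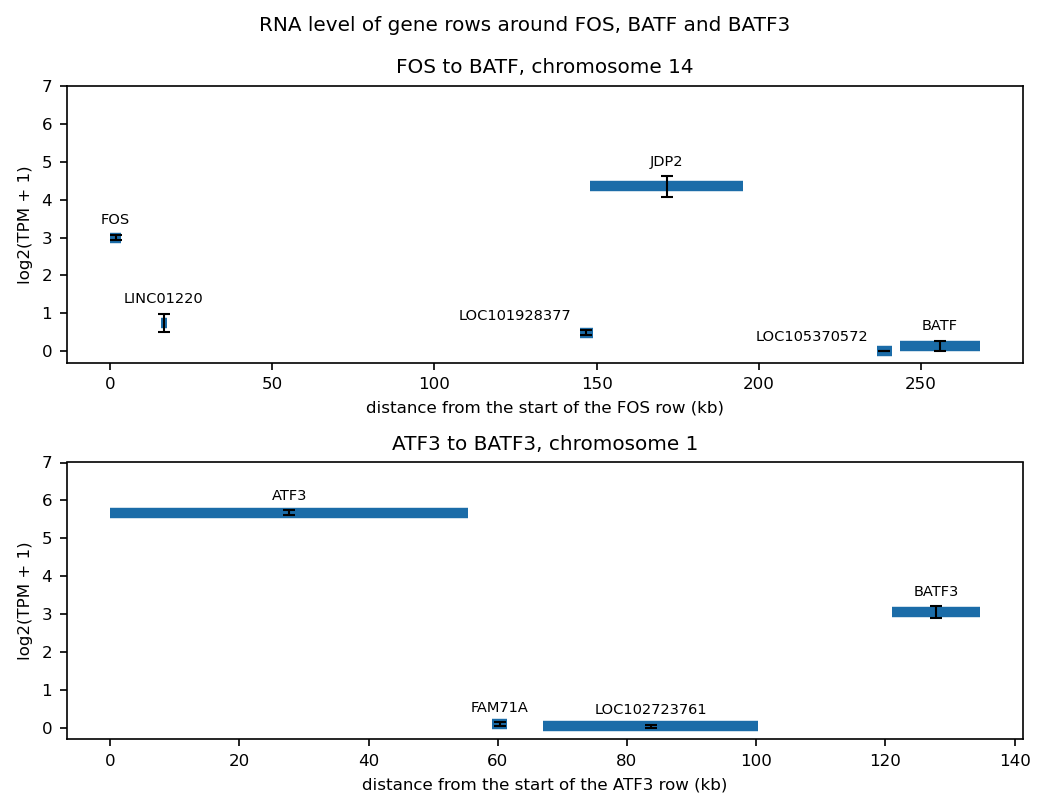
Gene rows between FOS and BATF on chromosome 14 (top) and between ATF3 and BATF3 on chromosome 1 (bottom), drawn to scale along the horizontal axis in kb from the start of the first row. The height is the mean of log2(TPM + 1) and the black bar the SD over 3 libraries. JDP2 at 19.6 TPM is the highest row of the top map and ATF3 at 50.3 TPM that of the bottom map.

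The transcripts were compared through MANE Select, 1 reference transcript per gene, for 19061 genes. JUN, JUNB and JUND each had 1 exon, as 5.37% of transcripts did, while the FOS family had 4 exons and the BATF family 3. JUND was richer in G and C (69.9%) than 99.5% of transcripts, and JUNB (64.9%) than 95.5%. In the 3′ untranslated region, ATTTA, the core of AU-rich elements, was found in 8 of the 10 genes, with BATF and BATF2 the exceptions. The share over all transcripts was not computed, so the count is not read as a trait of the set. Among regions of similar length (0.8 to 1.25 times), at least 1 copy stood in 67.4% for JUND, 72.3% for FOSL1 and 43.5% for BATF3. FOS held 5 copies in 806 bases, and 8.90% of 3′ untranslated regions of similar length held as many. FOSL2 held 9 copies in 4869 bases, a number reached by 60.7% of regions of similar length. The nonamer TTATTTATT was found in FOS and FOSL2, against 8.47% of all transcripts, with 5.31% among regions of the length of FOS and 21.4% among those of the length of FOSL2.

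The lines show 30 bases, 5′ to 3′, around ATTTA (in capitals, written as DNA) for FOS (chr14:75282057-75282086, plus strand), FOSL2 (chr2:28416348-28416377, plus strand), JUND (chr19:18279998-18280027, minus strand) and FOSL1 (chr11:65892272-65892301, minus strand). The windows of JUN, JUNB, FOSB and BATF3, not printed, held 1 copy each. Their whole regions held 3 copies in JUN, 2 in JUNB, 3 in FOSB and 1 in BATF3. Among regions of similar length, 47.0%, 26.4%, 70.3% and 43.5% held at least as many. A relation between these copies and the RNA level was not tested.
FOS: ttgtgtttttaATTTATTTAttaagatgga
FOSL2: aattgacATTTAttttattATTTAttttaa
JUND: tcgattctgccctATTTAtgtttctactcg
FOSL1: gagggcagctgctATTTAttttcctaaaga
In FOS 2 copies overlap within the window and in FOSL2 2 copies stand apart, whereas JUND and FOSL1 each hold 1 copy in the whole region. RNA stability was not measured. The sequence GGACT, a common context of N6-methyladenosine, the mRNA mark that the wider study concerned, was found in 9 of 10 transcripts. Of these, 8 exceeded the median of 0.924 per kilobase over all transcripts. The share of all transcripts that hold GGACT was not computed, so the count is not read as a trait of the set. JUN had 5 copies, or 1.54 per kilobase, more than 79.9% of transcripts, and BATF3 had 0. No methylation was measured in these libraries.

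The wider AP-1 pathway was read from lists of known partners, regulators and targets. Of 11 dimer partners of the ATF, JDP and MAF groups, 5 reached 10 TPM in every library and 2 stayed below 1 TPM, against 40.4% and 38.9% of protein-coding rows. MAFK, a small MAF protein without a transactivation domain, was highest at 183 TPM ± 10.1 (SD, n = 3), above JUND, and MAF was lowest, listed at 0 in replicates 1 and 3. Of 14 upstream kinases and factors, 12 reached 10 TPM in every library, against the same 40.4%. MAP2K2, the kinase that activates ERK, was highest at 191 TPM ± 11.4 (SD, n = 3), and MAPK10, the neuronal JNK, was lowest at 0.0138 TPM. The other JNK genes, MAPK8 and MAPK9, had 21.2 TPM ± 0.509 and 34.6 TPM ± 4.18 (SD, n = 3). SRF and ELK1, which switch FOS on through its serum response element, had 21.6 TPM ± 1.36 and 90.2 TPM ± 1.44 (SD, n = 3).

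Of 12 inhibitors and turnover factors, which restrain AP-1, 10 were at 10 TPM or above in every library, against 40.4% of protein-coding rows. KHSRP, which binds AU-rich elements and promotes decay, was highest at 223 TPM ± 6.17 (SD, n = 3), and DUSP6, a phosphatase of ERK, was lowest at 0.771 TPM ± 0.0663 (SD, n = 3). ZFP36, which also binds AU-rich elements, had 10.9 TPM ± 0.874 (SD, n = 3), and DUSP1, a phosphatase of JNK and p38, had 98.4, 98.7 and 94.1 TPM. Of 11 other immediate early genes, 6 reached 10 TPM in every library and 2 stayed below 1 TPM, against 40.4% and 38.9% of protein-coding rows, led by CCN1, a matrix protein, at 82.8 TPM ± 3.34 (SD, n = 3). EGR3 was listed at 0 in all libraries, and EGR1, usually induced together with FOS, had 1.35, 1.56 and 1.18 TPM. FOS stood above EGR1 and below CCN1 in every library. Means elsewhere in this list were 68.0 TPM for CCN2, 67.1 for NR4A1, 64.4 for IER2, 42.9 for IER5 and 14.3 for IER3. BTG2 had 8.94 TPM, KLF6 8.74 TPM and EGR2 0.0351 TPM.

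Of 16 known AP-1 target genes, 9 reached 10 TPM in every library, against 40.4% of protein-coding rows, led by VIM, the intermediate filament of mesenchymal cells, at 694 TPM ± 48.1 (SD, n = 3). Another 6 stayed below 1 TPM in every library, against 38.9% of protein-coding rows, and PLAU, a protease of the plasminogen system, had 1.05, 0.891 and 0.794 TPM. Of these low genes, the collagenase gene MMP13 and the stromelysin gene MMP3 were listed at 0 in every library. TIMP1, an inhibitor of such proteases, had 392 TPM ± 17.2, and CCND1, which drives entry into the cell cycle, had 111 TPM ± 4.51 (SD, n = 3). The medians over the lists of partners, upstream factors, inhibitors, immediate early genes and targets were 7.82, 25.0, 24.2, 14.3 and 12.5 TPM, against 4.99 TPM over all protein-coding rows. A level in 1 condition does not show whether AP-1 regulates a target here.

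**Figure D5:**
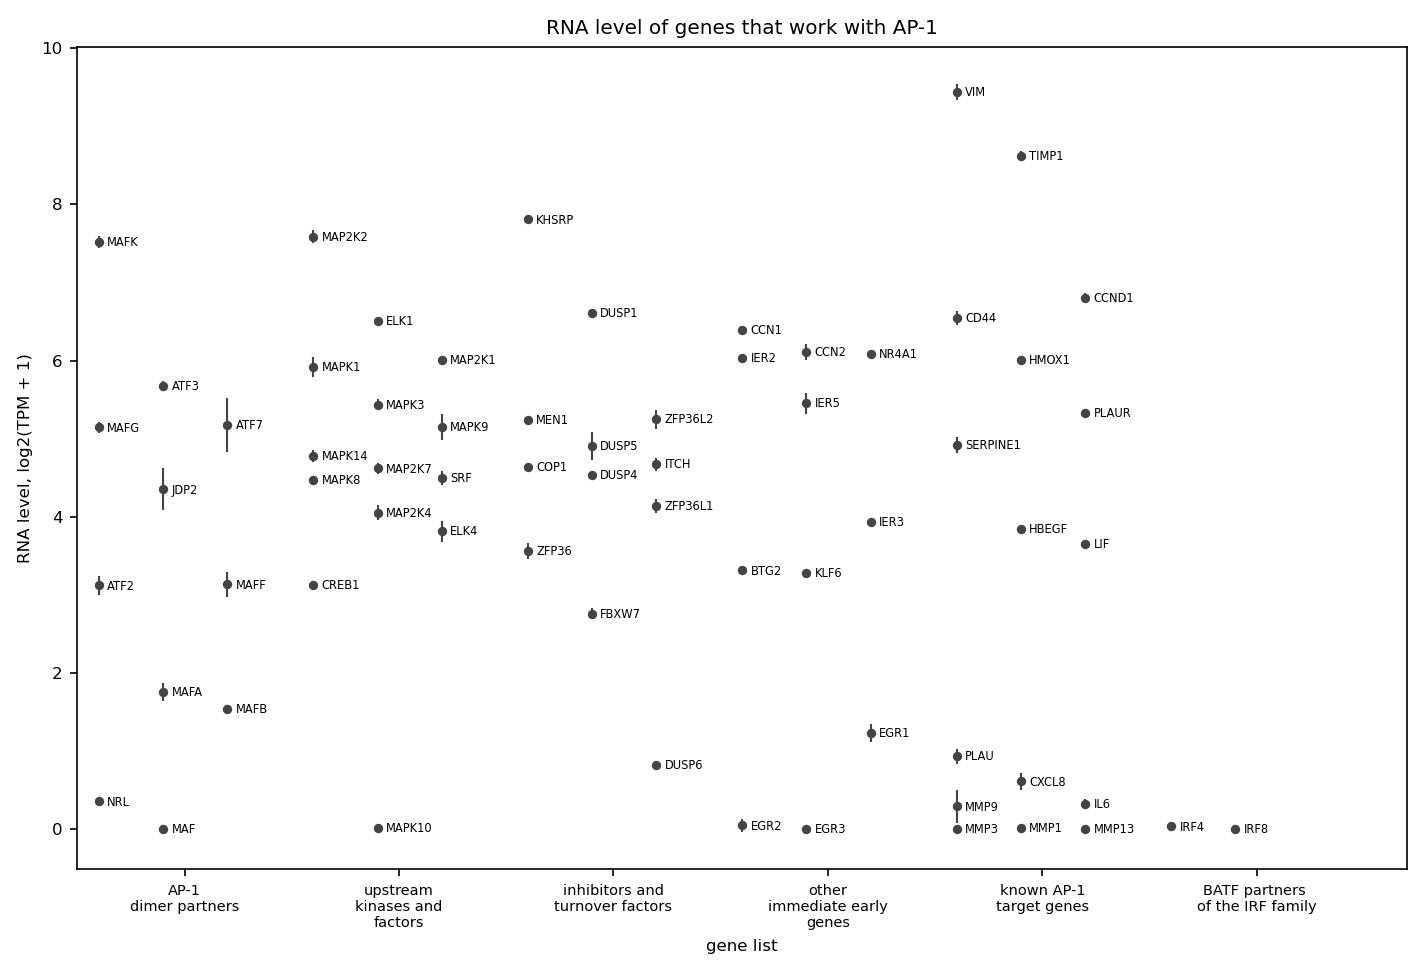
RNA level as log2(TPM + 1) on the vertical axis for each gene of 6 lists on the horizontal axis. Points are means and bars the SD over 3 libraries, and sideways position within a list only separates the names. Upstream and inhibitor genes mostly lie above 10 TPM, whereas target genes range from VIM at 694 TPM to MMP3 at 0.

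For each AP-1 gene with a mean of at least 1 TPM, the row nearest in level was taken as the one with the smallest Euclidean distance of log2(TPM + 1) over the 3 libraries. These were AP2B1 for JUND, TSKU for JUNB, NDFIP1 for FOSL1, DYNC1LI2 for FOSL2, ALKBH2 for JUN, TRIP11 for BATF3, ASB1 for FOS and CHST2 for FOSB. The distances ran from 0.0136 for FOSL1 to 0.0430 for JUND. Between 14 rows for BATF3 and 100 rows for FOSL1 lay within 0.1, so the nearest row is 1 of several at the same level. No AP-1 gene was the nearest row of another.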

How the data were processed

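RNA-seq was analysed in 3 libraries labelled HepG2, genotype WT, replicates 1 to 3. Per the study's methods, the authors quality-filtered 150 bp paired reads and mapped them to GRCh38. The submitters' processing notes name FastQC 0.11.8, Trim Galore 0.6.2, STAR 2.6.1a and StringTie, whose version, annotation and strand setting are not given in the sources used here. The deposited TPM values are scaled to a common total per library, the deposited FPKM values to length and library size, and the deposited coverage is the mean depth per base without scaling. No counts were used, so depth is known only relatively and precision is given as the SD over 3 libraries.

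Tables were joined by gene, strand and coordinates (43389 rows), and 39320 rows on the main chromosome sequences were kept. All 10 AP-1 genes matched a RefSeq symbol. Levels were summarised in Python 3.11.15 with numpy 2.4.6 and pandas 2.3.3, ratios as log2 within each library with a pseudocount of 1, and plots were drawn with matplotlib 3.10.9. The call of a log2 range above 1 was tested on simulated data. All 18 sequence windows extracted for inspection equalled the GRCh38 genome. Alternatives changed the minimum TPM, the pseudocount, the scaling, the column read and the libraries kept.

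The genes, lists and tests were chosen with earlier results of these data known. The genes named were the 10 AP-1 genes, rows overlapping them, the row nearest in level to each, and the highest, the lowest and the zero-listed genes of each pathway list. Of the marker lists, counts and sums are given. ALB, AFP, CD68, COL1A1, ATF3, JDP2, CCDC85B, MAPK8, MAPK9, SRF, ELK1, ZFP36, DUSP1, EGR1, TIMP1, CCND1 and PLAU were added after their values were seen. The same holds for CCN2, NR4A1, IER2, IER5, IER3, BTG2, KLF6 and EGR2.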

Additional observations from a re-analysis of the deposited data

How the results depend on the processing

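At a minimum of 10 TPM in place of 1 TPM, 5 AP-1 genes were counted in place of 8, while a minimum of 0.1 TPM, both rescalings and the removal of any 1 replicate left 8. Reading coverage in place of TPM moved the log2 ratio of the JUN to the FOS family from 1.07 to 1.52 and the JUN share from 66.3% to 73.6%. It also reversed FOSL2 to JUN (-0.93) and BATF3 to FOS (-1.61), and it left 2 of 9 neighbour ratios within 1 SD. The ratio of BATF3 to FOS ranged from -0.00126 to 0.13 when 1 replicate was left out, turning sign without replicate 3. The other 26 of 27 such ratios stayed within 1 SD, the family ratio ran from 1.05 to 1.10 and the JUN share from 66.0% to 66.8%. A pseudocount of 0.1 moved 3 of 9 neighbour ratios and reversed none. These were FOS to FOSB (1.44), FOSB to BATF (3.79) and BATF to BATF2 (0.93). Median-of-ratios scaling left all 10 means within 1 SD, and TPM without mitochondrially encoded genes was 1.25 times as high for every gene. Among AP-1 genes above the minimum mean of 10 TPM, or of 1 TPM in 1 alternative, the number with a log2 range above 1 was 0 under each alternative tried, and BATF and BATF2 were below both minimums. The causes were not tested. No paired analysis was possible because there was no second group to pair with. Groups of 3 libraries were too small for a check of outlying samples, and without counts the lowest values, such as BATF, have no detection limit.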
